A study of Rattus norvegicus with 72 samples.

Results

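The cell cycle genes described here are 37 genes, 15 that act in DNA replication and 22 that act in mitosis, chosen by name as known genes of the cell cycle. Every probe named for one of them was taken, by symbol, accession or gene identifier, from the rat whole-genome arrays. A named probe was found for 34 of the 37, 13 replication genes and 21 mitosis genes, on 45 probes. Ccne1, Bub1b and E2f1 had none. The arrays held 41012 distinct probes and named 15944 genes in all, and 38403 features were tested. All 34 genes passed the filter on dim probes, which asked for an intensity over 100 in at least 3 samples. Each gene was read from its brightest probe, and 11 genes also had a second probe.

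The tissue was the medial collateral ligament, taken from male Sprague-Dawley rats that were adult. The severed groups had the ligament severed under isoflurane with buprenorphine as analgesic, and were sampled on days 1, 2, 4, 7, 10 and 14. The sham groups had the same drugs and a bilateral operation in which the ligament was left whole, and were sampled on the same days. Each of these groups had 5 samples, except that the day 7 groups had 3 each. The cultured fibroblasts were grown from digested ligaments and sampled at serial passages 3 to 7, so their 5 samples are successive passages and not separate cultures. Unmanipulated rats, which had neither surgery nor drugs, gave 5 ligaments. A rat reference RNA, a pooled standard, was labelled 3 times with each dye. Each ligament was extracted whole, so that fewer dividing cells and less RNA per cell cannot be told apart in any ligament value.

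Cells copy their genome once per cycle and then divide it. The MCM proteins Mcm2 to Mcm7 form the ring helicase that opens the DNA, Cdc6 loads that ring, Pcna is the clamp that holds the polymerases, and Rrm1, Rrm2, Tk1 and Tyms make the DNA building blocks. Cdk1 with the cyclins Ccna2, Ccnb1 and Ccnb2 starts mitosis, and Plk1, Aurka, Aurkb, Bub1 and Ttk are kinases of the spindle and its checkpoint. In many mammalian cells the replication genes are switched on by E2F factors before DNA synthesis, and the mitosis genes later, through promoters that carry CCAAT boxes and a short element called CHR. Mature ligament is known as a tissue with few dividing cells, and fibroblasts divide in the days after an injury.

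The promoters of both groups were compared first, because they use no measured value. RefSeq's table on the GRCr8 build held a promoter for 27 of the 37 genes, 17 mitosis and 10 replication genes, each 300 bases long, from 250 bases before the start of the gene to 50 after it. No entry was used for Mcm4, Ccna2, Ccne2, Aurkb, Rrm2, Tpx2, Ube2c, Cdc6, Foxm1 and E2f1. Both strands were searched for the letters CCAAT, for CHR (TTTGAA or TTTAAA) and for an E2F site (TTTCCCGC, TTTCGCGC, TTTGCCGC or TTTGGCGC). The 4 promoters below belong to genes whose differences are among the larger ones described later. They are written 5′ to 3′ on the strand of the gene, with the matches in capitals.
Ccnb1 (chr2:33655176-33655475, minus strand): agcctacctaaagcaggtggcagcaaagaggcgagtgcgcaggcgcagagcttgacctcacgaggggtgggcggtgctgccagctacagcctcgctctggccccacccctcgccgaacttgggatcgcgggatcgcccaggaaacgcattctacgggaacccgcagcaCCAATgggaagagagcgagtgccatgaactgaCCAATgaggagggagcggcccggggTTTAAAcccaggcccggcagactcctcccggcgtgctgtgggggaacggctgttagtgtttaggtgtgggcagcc
Plk1 (chr1:186147408-186147707, plus strand): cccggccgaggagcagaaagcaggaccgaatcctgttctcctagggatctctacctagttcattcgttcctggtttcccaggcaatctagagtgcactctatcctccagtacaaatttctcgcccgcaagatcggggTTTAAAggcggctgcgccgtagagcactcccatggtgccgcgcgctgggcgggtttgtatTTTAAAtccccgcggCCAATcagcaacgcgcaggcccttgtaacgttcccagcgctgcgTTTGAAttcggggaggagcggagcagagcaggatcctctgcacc
Mcm3 (chr9:30733697-30733996, minus strand): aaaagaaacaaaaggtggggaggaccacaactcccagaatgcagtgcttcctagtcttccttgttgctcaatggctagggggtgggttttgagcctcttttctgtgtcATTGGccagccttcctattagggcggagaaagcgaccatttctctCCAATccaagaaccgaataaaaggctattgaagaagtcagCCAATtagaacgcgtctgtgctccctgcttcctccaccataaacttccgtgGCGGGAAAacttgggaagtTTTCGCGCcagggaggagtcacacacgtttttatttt
Mcm6 (chr13:42404303-42404602, minus strand): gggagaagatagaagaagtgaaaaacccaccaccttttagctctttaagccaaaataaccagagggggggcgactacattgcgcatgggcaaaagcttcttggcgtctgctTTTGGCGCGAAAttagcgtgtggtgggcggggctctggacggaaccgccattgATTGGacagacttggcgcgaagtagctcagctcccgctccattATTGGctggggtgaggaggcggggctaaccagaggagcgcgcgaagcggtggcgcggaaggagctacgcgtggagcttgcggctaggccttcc
The Ccnb1 and Plk1 promoters held CCAAT boxes and CHR letters and no E2F match, and the Mcm3 and Mcm6 promoters held CCAAT boxes and E2F letters and no CHR match. A CHR match was present in 17 of 17 mitosis promoters (100%) and in 2 of 10 replication promoters (20%), against 27.9% of the 27457 promoters in the table. An E2F match was present in 1 of 17 mitosis promoters (5.9%) and in 6 of 10 replication promoters (60%), against 2.3% of all. The CCAAT box was found in 14 of 17 mitosis promoters (82.4%) and 6 of 10 replication promoters (60%), against 37.7% of all. Both CCAAT and CHR stood in 14 of 17 mitosis promoters and in 0 of 10 replication promoters, against 11.1% of all. A match is a run of letters and shows no binding.

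**Figure D1:**
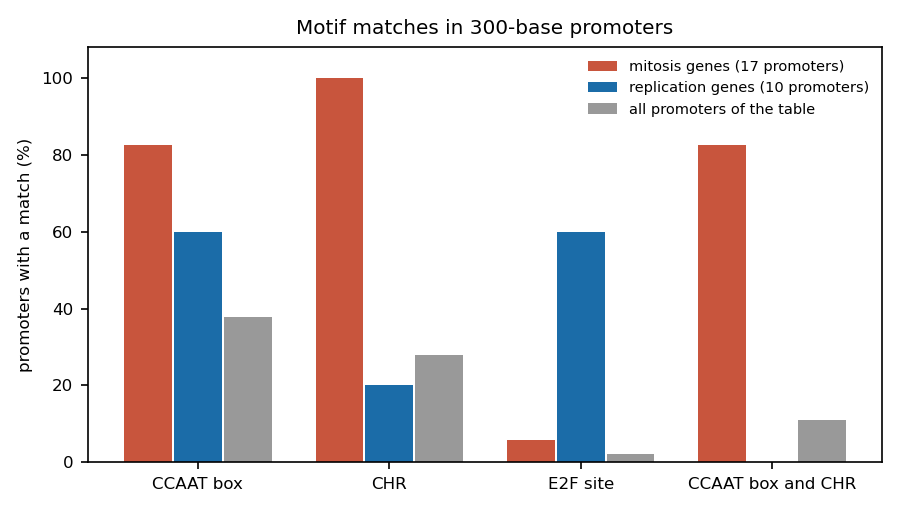
The bars give the percentage of promoters that hold a CCAAT box, a CHR, an E2F site, or a CCAAT box together with a CHR, for 17 mitosis genes, 10 replication genes and all 27457 promoters. CHR letters stood in 100% of the mitosis promoters and E2F letters in 60% of the replication promoters.

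Levels are given as log2 of the quantile-normalised intensity, with a floor of 50 (5.64 on this scale), and differences and their standard errors (SE) are on the same log2 scale. A level says nothing about another gene's level, since probes differ in brightness. Gene spots above background, meaning over the 95th percentile of the negative control spots of the same sample, made up 5.6% to 86.5% of the gene spots of a sample (median 36.8%) over the 71 usable samples. In the fibroblasts this share was 10.7% to 66.4%, in severed day 10 ligaments 19.3% to 75.8%, in severed day 14 ligaments 18.0% to 32.1% and in unmanipulated ligaments 37.4% to 52.4%. Severed day 7 replicate 2 was left out because all of its values were misread, and in 11 other samples stretches of spots were left out for the same reason. Those stretches held 97.6% of severed day 4 replicate 4, 85.5% of severed day 4 replicate 1 and 78.2% of sham day 4 replicate 1. Replicate 3 lost 25.1% in the severed and 27.5% in the sham day 4 group. Day 4 results therefore rest mostly on fewer than 5 samples per group. Fibroblast replicate 1 stood apart from the other 4 in several genes. In 4 groups, the fibroblasts, severed day 4, severed day 7 and sham day 7, the median SD over the brighter features was no larger than between repeated labellings of the reference RNA. Each of these groups was therefore counted as 1 sample, and its mean is given without an SD. Single genes could still differ more, as Cdk1 did in the fibroblasts and in sham day 7 ligaments. The protocol describes 5 animals for each group and day, but the sample names give replicate numbers only, with no animal, litter or hybridisation day, so the p-values measure the spread between these samples. The 4 groups counted as 1 sample add no spread of their own, so their tests borrow the spread of the other groups. For severed against sham ligaments on day 7 neither side adds any. A second limit is the dye. On each day the severed and the sham samples carried opposite dyes, and the dye effect was estimated from the reference RNA alone. Only the fitted differences carry that dye term. Levels, overlaps and folds given as at least a value do not, so between severed and sham samples they are confounded with dye. The comparisons of fibroblasts or severed days 7, 10 and 14 with unmanipulated ligament have Cy5 on both sides.

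**Figure D2:**
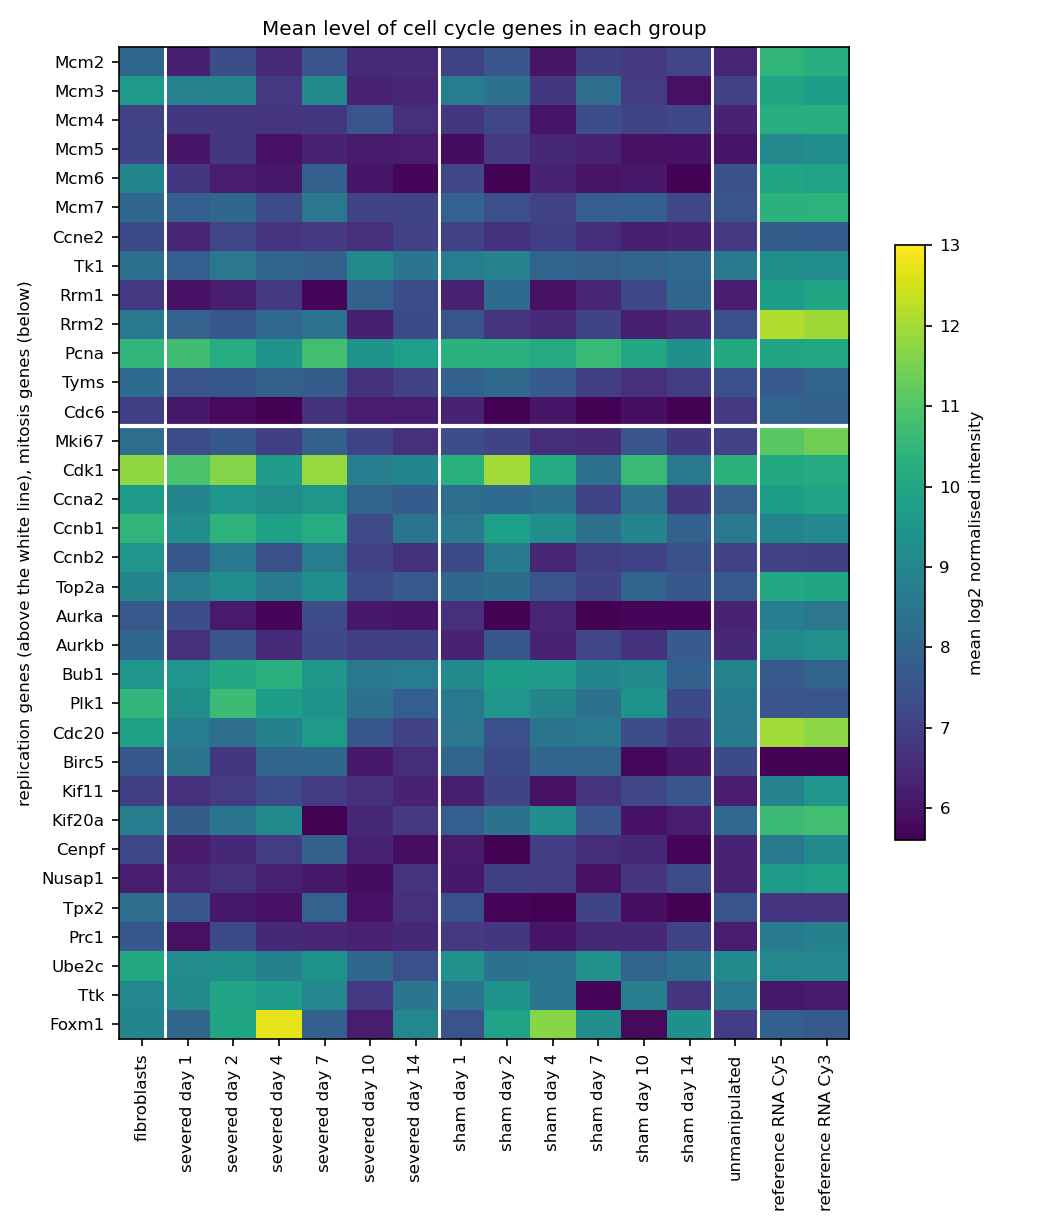
Mean level of each of the 34 genes (rows, replication and mitosis genes apart) in each of the 16 groups (columns), as log2 intensity on a colour scale. The levels in fibroblasts and severed day 7 ligaments are above those in severed day 10 ligaments for most rows, for example 11.77 and 11.85 against 8.76 for Cdk1.

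Cultured fibroblasts had higher levels than unmanipulated ligament for 32 of the 34 genes, and the median difference was 1.04 over all members, against 0.00 over all features. The mitosis genes had a median difference of 1.23 and the replication genes one of 0.72. A difference of more than 2-fold was measured for 17 genes, 12 mitosis and 5 replication genes. None of the 34 passed an adjusted p of 0.05 (limma with Benjamini-Hochberg adjustment over all features), where 1.04% of features did. At an unadjusted p under 0.05, 5 members were higher and 0 lower, where 2.9% of all features were higher and 3.48% lower. These 5 were all mitosis genes. In simulated data this comparison recovered 11% of log2 changes of 2 and 47% of changes of 3, so most changes of these sizes would not be called.

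In this comparison 10 of 34 members had every fibroblast sample above every unmanipulated one, where 10.3% of features did. The 2 B cyclins and Plk1 were among the 10. These counts include fibroblast replicate 1, where no level under 9.57 was above background. Ccnb1, the cyclin that activates Cdk1 at the entry to mitosis, read 10.56, 10.36, 10.33, 10.57 and 10.33 in the 5 fibroblast samples, against 8.21, 7.84, 8.76, 8.26 and 9.70 in unmanipulated ligaments (8.55 ± 0.72, SD, n = 5). Every fibroblast sample was above every unmanipulated one, and the difference was 1.88 ± 0.83 (SE, adjusted p = 0.607). Ccnb2, the other B cyclin, had 9.21, 9.40, 9.63 and 9.63 in the 4 fibroblast samples with a value, against 6.94, 6.56, 7.54, 6.42 and 7.81 in unmanipulated ligaments, again with no overlap. Its difference was 2.41 ± 0.91, the largest of the mitosis genes in this comparison. Plk1, a kinase that drives entry into mitosis, read 10.30, 10.66, 10.51, 10.36 and 10.48 in fibroblasts, against 8.35, 8.31, 9.002, 8.50 and 9.23 in unmanipulated ligaments. Its groups did not overlap either, and the difference was 1.78 ± 0.77. The remaining 2 of the 5 were Prc1, which bundles the microtubules of the dividing cell's midzone (1.45 ± 0.70, at least 1.42-fold since no unmanipulated sample was above background), and Aurka, a kinase of the spindle poles (1.35 ± 0.61). Aurka was at the floor of 5.64 in fibroblast replicate 1 and between 8.06 and 8.36 in the other 4.

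Mki67, the Ki-67 antigen used to mark cycling cells, read 8.23, 8.42, 8.39, 8.11 and 8.23 in fibroblasts, against 6.37, 7.52, 6.58, 7.43 and 7.35 in unmanipulated ligaments (7.05 ± 0.53, SD, n = 5). All fibroblast samples were above all unmanipulated ones, with a difference of 1.23 ± 0.90 that did not pass the test. The fibroblast value listed first, of replicate 1, was under the dimmest level above background of that sample (9.57). Top2a, the topoisomerase that untangles chromosomes, read 8.99, 8.88, 8.96, 9.10 and 8.84 in fibroblasts, against 7.15, 6.60, 8.32, 7.28 and 9.09 in unmanipulated ligaments, and the groups overlapped. Cdk1 itself read 8.81 in fibroblast replicate 1 and 12.55, 12.62, 12.39 and 12.46 in the other 4, against 10.62, 9.15, 9.96, 10.26 and 11.73 in unmanipulated ligaments. Its difference was 1.42 ± 1.11 with all fibroblast samples and 2.16 without replicate 1.

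Among the replication genes, Mcm2, a subunit of the helicase ring, read 8.43, 7.76, 8.02, 8.03 and 8.26 in fibroblasts, against 5.64, 7.42, 5.64, 6.55 and 6.58 in unmanipulated ligaments. The groups did not overlap, and the difference was 1.73 ± 0.90. Here too the fibroblast value of replicate 1 (8.43) was not above background. Mcm3 differed by 2.53 ± 1.64 and Mcm6 by 1.52 ± 0.86, without passing the test. Rrm2, the small subunit of ribonucleotide reductase, read 5.64 in fibroblast replicate 1 and 9.41, 9.44, 9.23 and 9.25 in the others, against 7.71, 5.64, 7.79, 7.28 and 8.62 in unmanipulated ligaments. The difference for Rrm2 was 1.19 ± 0.87, and 1.93 without that replicate. Pcna read 10.39, 10.30, 10.48, 10.61 and 10.55 in fibroblasts, against 10.02, 8.60, 10.46, 10.49 and 10.84 in unmanipulated ligaments, so that the fibroblast values lay inside the range of the unmanipulated ones (0.38 ± 0.69). The 2 genes below 0 were Tk1, thymidine kinase (-0.28 ± 0.63), and Nusap1, a spindle protein (-0.13 ± 0.82).

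**Figure D3:**
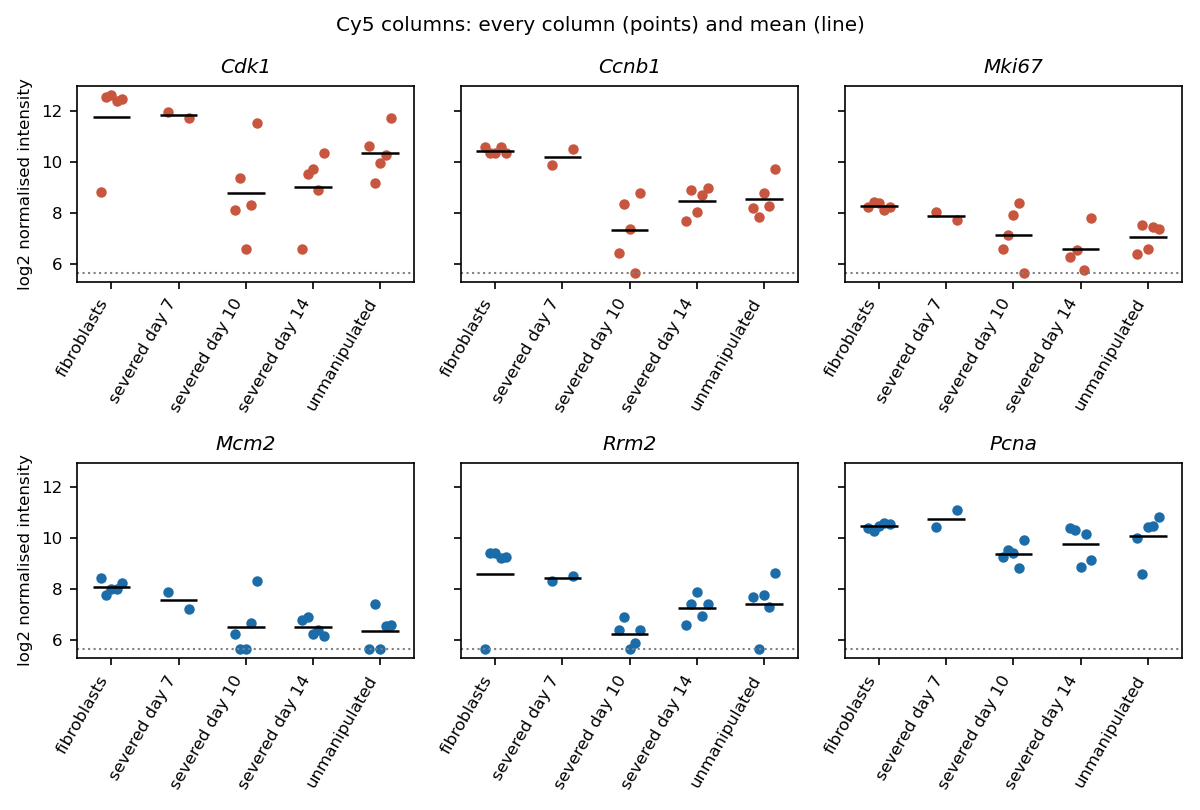
Levels of Cdk1, Ccnb1, Mki67, Mcm2, Rrm2 and Pcna (log2 intensity, vertical axis) in every fibroblast, severed day 7, severed day 10, severed day 14 and unmanipulated sample. Points are samples, horizontal lines are group means and the dotted line is the floor of 5.64. Fibroblast and severed day 7 points sit close together, except the low fibroblast points of Cdk1 (8.81) and Rrm2 (5.64), and severed day 10 points spread widely.

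The fibroblast samples were counted once because their median spread was no larger than that of the reference RNA, which sets how many members are called. Replicate 1 had 10.7% of its gene spots above background, against 53.5% to 66.4% in the other 4, and stood apart for Cdk1, Rrm2 and Aurka. When the 5 were counted as separate samples, 9 members passed the adjusted threshold, where 3737 of the 38403 features did, against 401 otherwise. The 9 were Mcm2, Mcm6, Ccna2, Ccnb1, Ccnb2, Aurka, Aurkb, Plk1 and Prc1, with adjusted p between 0.000894 for Ccnb2 and 0.0461 for Aurkb (limma). Serial passages are not separate cultures, so that count is given as an alternative only. The sign of the difference was the same in all 16 alternatives for every member except Tk1, Cdc6, Kif11 and Nusap1. Other cell types differed beside this comparison. Summed intensities of red blood cell markers were 685 to 4563 in fibroblasts and 109305 to 176630 in unmanipulated ligaments, and those of skeletal muscle markers were 473 to 628 in fibroblasts and 90195 to 323066 in unmanipulated ligaments. The summed ligament and tendon markers were 2674 to 2963 in fibroblasts, with 3 of the 5 measured genes above background in a sample, and 94829 to 115100 in unmanipulated ligaments. In fibroblasts 4 of 5 measured red blood cell genes and 4 of 6 muscle genes were above background in at least 1 sample, while Tnmd, Mkx, Hbb-b1, Myh4 and Myh1 were in 0. In unmanipulated ligaments all measured genes of the 3 lists were above background in a sample. The part of these cell types in the differences was not tested.

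Against severed day 14 ligaments, the fibroblasts were higher for 30 of the 34 genes, with a median difference of 1.23 (1.63 for mitosis genes and 0.94 for replication genes) against -0.07 over all features. Here 1 member passed the adjusted threshold, where 1.96% of features did, and 9 were higher at an unadjusted p under 0.05 and 0 lower, where 4.91% of features were higher and 4.55% lower. The gene that passed was Mcm6, a subunit of the helicase ring. It read 8.14, 9.21, 9.28, 9.21 and 8.91 in fibroblasts, against 5.64, 5.64, 5.64, 5.64 and 5.99 in severed day 14 ligaments (5.71 ± 0.15, SD, n = 5), with no overlap, as for 11 of 34 members and 8.74% of features. The value of 8.14 was that of fibroblast replicate 1, where no level under 9.57 was above background. Since Mcm6 was not above background in any severed day 14 sample, the fold is a bound, at least 2.01-fold higher in fibroblasts, set by the dimmest signal that was above background there. The fitted difference was 3.24 ± 0.86 (limma, adjusted p = 0.0284), and the call was lost with misread values kept (adjusted p = 0.264) and with a floor of 20 (0.0895). The other 8 were mitosis genes, among them Cdc20, an activator of the anaphase-promoting complex (2.79), Ube2c, the ubiquitin-conjugating enzyme that works with that complex (2.70), Cdk1 (2.76), Ccnb2 (2.79, at least 2.88-fold since no severed day 14 sample was above background) and Plk1 (2.64, adjusted p = 0.0593). Ttk, by contrast, differed by 0.55. With the replicate number as a block, 5 members passed, Mcm3, Mcm6, Plk1, Cdc20 and Ube2c, while the count over all features went to 1587 with the block, against 751 without it. The block takes spread shared by a severed and a sham sample out of the SE, while fibroblast and unmanipulated samples have no block. In comparisons with those samples that SE is understated where pairs deviate together, so calls made with the block are less secure. The severed day 14 samples were among the dimmer ones, as given above, and the part of that in these differences was not tested.

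The severed ligaments of days 7, 10 and 14 taken as 1 mean showed no shift of the group against unmanipulated ligament. The difference was above 0 for 19 of the 34 genes, with a median of 0.04 against 0.05 over all features. No member passed the adjusted threshold, where 0.219% of features did. At an unadjusted p under 0.05, 0 members were higher and 1 lower, where 2.94% of features were higher and 4.1% lower. The lower one was Kif20a, a kinesin of cytokinesis (-1.84 ± 0.70), and with the replicate number as a block it was the 1 member to pass the adjusted threshold, where 764 features passed with the block and 84 without it. The limit on the block given above holds here too. With median scaling in place of quantile normalisation, 14 of 34 genes were above 0 and the median was -0.19, against -0.06 over all features. That mean joins days on which the members went different ways, as the next comparisons show for each day.

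On day 7 the severed ligaments were higher than unmanipulated ones for 29 of the 34 genes, with a median difference of 0.72 (0.82 for mitosis and 0.45 for replication genes) against -0.04 over all features. No member passed the test at either level (0 higher and 0 lower), where 0.013% of features passed the adjusted threshold and 0.924% were higher and 0.669% lower at an unadjusted p under 0.05. The 2 usable samples, counted as 1, gave close values. Ccnb1 read 9.87 and 10.50 in severed day 7 ligaments, both above the highest of the unmanipulated values given above, as for 9 of 34 members and 10.2% of features. Cdk1 read 11.96 and 11.73, against a highest unmanipulated value of 11.73. Mki67 read 8.02 and 7.71, both above all unmanipulated values, Top2a read 9.33 and 9.13, and Mcm2 read 7.90 and 7.22. Rrm2 read 8.32 and 8.53 and Pcna read 10.42 and 11.09, inside or next to the range of unmanipulated ligament. Ccnb1 differed by 1.64, Ccna2 by 1.60, Cenpf, a kinetochore protein not above background in unmanipulated ligament, by 1.54 (at least 1.69-fold), and Mcm3 by 2.07. The second probes gave 1.12 for Ccnb1, 0.56 for Ccna2, 0.23 for Cdk1, -0.26 for Top2a and -0.09 ± 0.75 for Cenpf. The Cenpf rise and its bound therefore rest on the brighter probe alone. Kif20a (-2.49, at least 3.00-fold lower since it was not above background on day 7) and Tk1 (-0.73) were below 0. The 2 usable day 7 samples had 54.2% and 60.6% of their gene spots above background, more than any unmanipulated one, and the part of that in these differences was not tested.

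On day 10 most members were instead lower in severed than in unmanipulated ligaments. Only 11 of 34 differences were above 0, and the median was -0.38 (-0.35 for mitosis and -0.41 for replication genes) against 0.07 over all features. The adjusted threshold was passed by 1 member on the higher and 2 on the lower side, where 2.84% of features passed. At an unadjusted p under 0.05, 2 members were higher and 8 lower, where 8.16% of features were higher and 8.3% lower. Tpx2, which activates Aurka on the spindle, read 5.64, 5.64, 5.64, 5.89 and 7.00 in severed day 10 ligaments, against 7.30, 7.96, 7.47, 7.76 and 7.05 in unmanipulated ligaments. The groups did not overlap, as for 1 of 34 members and 2.6% of features, and the fitted difference was -1.54 ± 0.39 (limma, adjusted p = 0.0196). Tpx2 was above background in 1 of 5 severed and 3 of 5 unmanipulated samples, so the size of this fall is not well measured. Sham day 10 ligaments were as low for Tpx2, with 4 samples at 5.64 and 1 at 7.01. Ttk, the kinase MPS1 of the spindle checkpoint, read 6.10, 7.74, 7.06, 5.69 and 7.55 in severed day 10 ligaments, against 8.54, 7.64, 8.47, 8.60 and 9.58 in unmanipulated ligaments. Only the lowest unmanipulated value was inside the severed range, and Ttk fell by 1.74 (SE 0.45, limma, adjusted p = 0.0232). Severed replicates 1, 3 and 4 were under the dimmest level above background of their samples (8.51, 7.71 and 8.45). The size of the Ttk fall is therefore not well measured. The second Ttk probe gave -0.40 ± 0.55.

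Rrm1, the large subunit of ribonucleotide reductase, went the other way on day 10. It read 10.08, 7.11, 6.79, 8.78 and 6.76 in severed day 10 ligaments, against 6.89, 5.64, 5.64, 5.92 and 6.82 in unmanipulated ligaments, with an overlap at the low end. Rrm1 rose by 1.72 ± 0.49 (limma, adjusted p = 0.0423), at least 1.72-fold since no unmanipulated sample was above background. Its second probe gave 0.39 ± 0.45. Rrm2, the partner subunit, read 6.39, 6.93, 5.64, 5.89 and 6.39 in severed day 10 ligaments and differed by -1.16 ± 0.50 without passing the adjusted threshold. Ccnb1 read 6.42, 8.33, 7.35, 5.64 and 8.78 in severed day 10 ligaments (7.31 ± 1.30, SD, n = 5), Cdk1 read 8.09, 9.35, 6.57, 8.30 and 11.52, and Mki67 read 6.58, 7.11, 7.93, 8.38 and 5.64. These values overlapped those of unmanipulated ligament, and the differences were -1.25, -1.58 and 0.08. Severed day 10 samples differed more among themselves than most groups, and the summed skeletal muscle markers ran from 2035 to 56612 in them, against 90195 to 323066 in unmanipulated ligaments. The part of muscle content and of dimness in these differences was not tested. All 3 calls were lost with misread values kept in (adjusted p = 0.0669 for Rrm1, 0.0518 for Tpx2 and 0.266 for Ttk). In the values of the authors' series matrix the Rrm1 difference was 0.06 and the Tpx2 difference -0.12, and with a floor of 20 the Rrm1 difference was 0.47. Leaving out severed day 10 replicate 1 left no member called in either direction. With the replicate number as a block, 5 members were called lower, Mcm6, Cdc20, Kif20a, Tpx2 and Ttk, and Rrm1 was called higher, where 3802 features were called with the block and 1090 without it. Unmanipulated samples have no block, so the limit on the block given above holds for these calls.

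**Figure D4:**
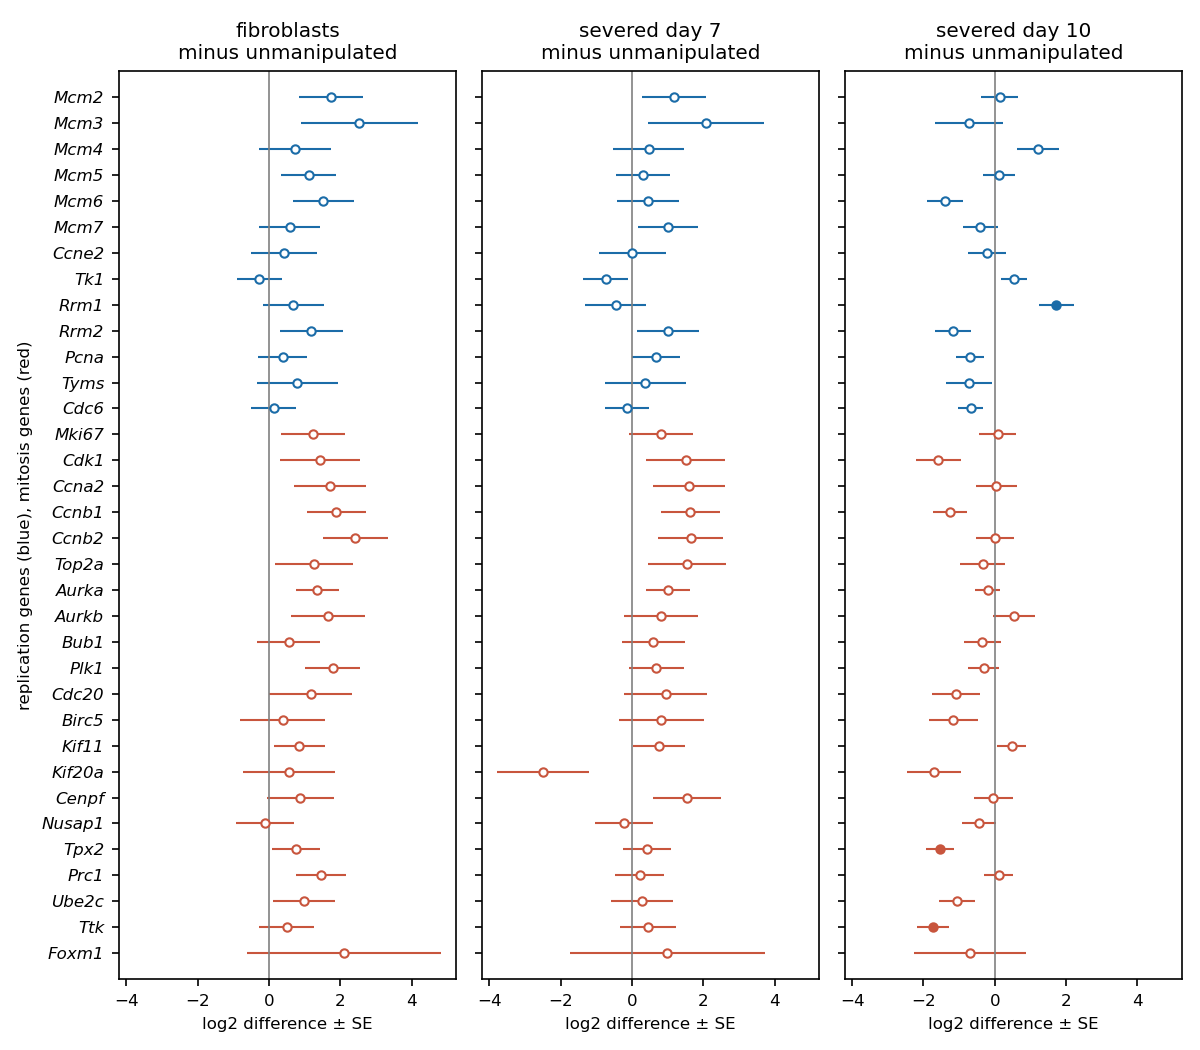
Difference of each of the 34 genes from unmanipulated ligament (log2, horizontal axis, ± SE) for fibroblasts, severed day 7 and severed day 10, with replication and mitosis genes marked by colour and filled points for an adjusted p under 0.05. Filled points stand only in the severed day 10 panel, at 1.72 for Rrm1, -1.54 for Tpx2 and -1.74 for Ttk.

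On day 14, severed ligaments were again above unmanipulated ones for 11 of 34 genes only, with a median of -0.25 (-0.28 for mitosis and -0.15 for replication genes) against 0.08 over all features. Here 2 members passed the adjusted threshold on the lower side and 0 on the higher side, where 2.93% of features passed, and 1 was higher and 5 lower at an unadjusted p under 0.05, where 8.06% of features were higher and 8.18% lower. Ube2c read 7.10, 8.17, 7.23, 6.50 and 7.97 in severed day 14 ligaments (7.40 ± 0.68, SD, n = 5), against 8.62, 9.02, 9.23, 9.12 and 9.67 in unmanipulated ligaments (9.13 ± 0.38, SD, n = 5). The groups did not overlap, as for 1 of 34 members and 3.25% of features, and Ube2c fell by 1.73 (SE 0.50, limma, adjusted p = 0.0429). Severed replicates 1, 3 and 4 were under the dimmest level above background of their samples (8.62, 7.79 and 7.92). The size of the Ube2c fall is therefore not well measured. Mcm6, with the severed values given above, read 8.01, 7.87, 5.64, 8.11 and 7.51 in unmanipulated ligaments (7.43 ± 1.02, SD, n = 5) and passed the test too (limma, adjusted p = 0.0429). It was above background in 0 of 5 severed and 4 of 5 unmanipulated samples, and no fold can be given, because the unmanipulated mean was under the dimmest signal that was above background in the severed samples. One unmanipulated sample was at the floor, so the Mcm6 groups overlapped there. Cdc20 (-1.63), Cdk1 (-1.33) and Tpx2, which was above background in 0 of 5 severed samples, were lower at an unadjusted p under 0.05 only. Both calls were lost with misread values kept (adjusted p = 0.0897 for Ube2c and 0.0982 for Mcm6). In the values of the authors' series matrix Mcm6 differed by -0.78 (limma, adjusted p = 0.272). The count of members called also changed with single samples, and both were kept only when severed day 14 replicate 5 was the sample left out. Ccnb1 read 7.66, 8.89, 8.02, 8.71 and 8.97 in severed day 14 ligaments, overlapping the unmanipulated values, and Mki67 read 6.25, 6.54, 5.75 and 7.81 in the 4 severed day 14 samples with a value.

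Set directly against severed day 10, severed day 7 ligaments were higher for 30 of 34 genes, with a median of 1.27 (1.55 for mitosis and 1.05 for replication genes) against -0.11 over all features. No member passed the adjusted threshold, where 0.0104% of features did. Without adjustment, 6 members were higher and 2 lower, where 3.36% of features were higher and 1.86% lower. The 6 were Cdk1 (3.09 ± 1.11), Ccnb1 (2.88 ± 0.83, adjusted p = 0.388), Ttk (2.19 ± 0.77), Rrm2 (2.17 ± 0.87), Tpx2 (1.97 ± 0.67) and Mcm6 (1.84 ± 0.86). The 2 lower ones were Rrm1 (-2.17 ± 0.85, at least 2.55-fold lower since no day 7 sample was above background) and Tk1 (-1.29 ± 0.63). The second Rrm1 probe gave -0.99 ± 0.77. Rrm2, the partner subunit of Rrm1, was among the higher ones. With samples of near-identical groups counted separately, Ccnb1 and Ttk passed the adjusted threshold, where 404 features did, against 4 otherwise. The 2 severed day 7 samples stand for 1 sample here and are assumed to vary like the other groups.

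The sham ligaments of days 1 and 4 were above unmanipulated ones for 19 of 34 genes, with a median of 0.11 against -0.01 over all features (-0.02 for the members with median scaling). No member passed the adjusted threshold, and neither did any feature (0%). Without adjustment (p under 0.05), 0 members were higher and 2 lower, where 1.56% of features were higher and 1.93% lower. The lower ones were Tpx2 (-0.96 ± 0.35) and Cdc6, the loader of the helicase (-0.66 ± 0.32). Severed day 4 against severed day 1, with Cy3 on both sides, was above 0 for 17 of 34 genes, with a median of 0.05 against 0.01 over all features. Again 0 members passed the adjusted threshold, as did 0% of features, and 0 were higher and 2 lower at an unadjusted p under 0.05, where 0.695% of features were higher and 1.81% lower. These 2 were Aurka (-1.63 ± 0.61, at least 1.13-fold lower) and Tpx2 (-1.61 ± 0.67, at least 1.31-fold lower), partners on the spindle poles. Neither was above background in a severed day 4 sample with a value, and most values of severed day 4 replicates 1 and 4 were left out.

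Severed and sham ligaments of the same day answer what severing adds to the surgery, within the limit on dye given above. On day 1, 19 of 34 genes were above 0, with a median of 0.10 (0.39 for mitosis and -0.15 for replication genes). With median scaling 7 were above 0 and the median was -0.53 (-0.59 for mitosis and -0.46 for replication genes), where all features shifted to -0.18, so the direction of the day 1 medians depends on the scaling. None passed the adjusted threshold, nor did any feature (0%), and 0 members were higher and 0 lower at an unadjusted p under 0.05, where 0.599% of features were higher and 0.461% lower. On day 2, 23 were above 0, with a median of 0.34 (0.57 for mitosis and 0.05 for replication genes). None passed the adjusted threshold (0% of features), and 0 were higher and 1 lower without adjustment, where 1.22% of features were higher and 1.11% lower. That gene was Rrm1 (-1.77 ± 0.81, at least 1.13-fold lower since no severed day 2 sample was above background). On this day the labels and the headers give opposite dyes, and the headers were followed. On day 4, 22 were above 0, with a median of 0.25 (0.33 for mitosis and 0.11 for replication genes), and 0 were called either way, where 0% of features passed the adjusted threshold and 0.0781% were higher and 0.0599% lower without adjustment.

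Levels on those days, which carry no dye correction, show how far the groups overlapped. Ccna2, the cyclin of S phase and early mitosis, read 8.52, 8.90, 8.55, 9.41 and 9.43 in severed day 1 ligaments, against 8.35, 6.79, 8.34, 8.57 and 9.36 in sham day 1 ligaments. On day 2 it read 9.61, 9.81, 9.27, 8.79 and 9.94 in severed ligaments, against 8.45, 8.22, 6.29, 8.35 and 9.55 in sham ligaments. The severed samples lay mostly above the sham samples on both days, with overlap. Plk1 read 10.85, 10.47, 10.98, 10.28 and 10.84 in severed day 2 ligaments, against 7.84, 10.55, 9.39 and 10.01 in the 4 sham day 2 ligaments with a value, and differed by 1.25. Mki67 read 6.21, 7.62, 7.79, 7.49 and 7.38 in severed day 1 ligaments, against 7.37, 7.91, 7.07, 6.90 and 7.56 in sham day 1 ligaments, within one range. Pcna read 10.67, 11.31, 10.75, 10.68 and 10.20 in severed day 1 ligaments, against 10.59, 10.04, 10.56, 10.17 and 10.25 in sham day 1 ligaments, a difference of 0.34.

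On day 7 the severed minus sham difference was above 0 for 29 of the 34 genes, with a median of 0.77 (0.85 for mitosis and 0.41 for replication genes) against -0.03 over all features. No member passed the adjusted threshold, and neither did any feature (0%), and 2 members were higher and 0 lower at an unadjusted p under 0.05, where 0.208% of features were higher and 0.148% lower. Both groups count as 1 sample each here. In simulated data this comparison recovered 0% of log2 changes of 2 and 1% of changes of 3, so a lack of calls says little about the members. Ttk read 9.10 and 8.93 in severed day 7 ligaments, against 5.64, 5.64 and 5.92 in sham day 7 ligaments, where it was not above background. Its difference was 3.34 ± 1.15, at least 3.27-fold. Cdk1 read 11.96 and 11.73 in severed ligaments, against 9.62, 9.74 and 5.64 in sham ligaments, and differed by 3.58 ± 1.66. Ccna2 read 9.33 and 9.71 in severed ligaments, against 7.58, 6.97 and 6.69 in sham ligaments (2.65 ± 1.50), Ccnb1 read 9.87 and 10.50 against 8.73, 8.50 and 7.75 (2.04 ± 1.23), and Top2a read 9.33 and 9.13 against 7.33, 8.38 and 5.64. These groups did not overlap for any of the 5 genes just named, as for 16 of 34 members and 16.4% of features on this day. These levels and the bound for Ttk carry no dye correction, with Cy5 on the severed and Cy3 on the sham side. Pcna did overlap, with 10.42 and 11.09 in severed day 7 ligaments and 10.59, 10.48 and 10.76 in sham day 7 ligaments. Kif20a was the gene furthest below 0 (-1.80 ± 1.92, at least 1.98-fold lower since no severed day 7 sample was above background). With misread values kept in, 23 genes were above 0 and the median was 0.34 on day 7, against 0.37 on day 14, so day 7 does not have the largest median in that setting. The share of gene spots above background was 54.2% and 60.6% in the severed day 7 samples and 36.8% to 41.8% in the sham day 7 samples. Marker sums differed as well. Adipocyte markers summed to 1180 to 1592 in severed and 4009 to 4393 in sham day 7 ligaments, cartilage markers to 8544 to 22770 in severed and 33308 to 38320 in sham ones, and T and B cell markers to 1433 to 1538 in severed and 2354 to 2945 in sham ones. Skeletal muscle markers summed to 132846 to 143267 in severed and 190545 to 218173 in sham day 7 ligaments, red blood cell markers to 50182 to 106265 in severed and 115981 to 190093 in sham ones, and endothelial markers to 6090 to 8498 in severed and 4641 to 4938 in sham ones. Ligament and tendon markers summed to 98371 to 126291 in severed and 140873 to 154895 in sham day 7 ligaments, and bone marrow progenitor markers to 637 to 826 and 916 to 1390. Macrophage markers overlapped, at 3883 to 5826 in severed and 3248 to 36619 in sham ligaments, and so did fibroblast and neutrophil markers. The part of brightness and of these cell types in the day 7 differences was not tested.

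On day 10 the difference was above 0 for 17 of 34 genes, with a median of 0.01 (-0.01 for mitosis and 0.14 for replication genes) against 0.03 over all features. With median scaling it was -0.15, against 0.09 over all features. None passed the adjusted threshold (0% of features), and 0 members were higher and 1 lower without adjustment, where 0.557% of features were higher and 1.01% lower. That gene was again Ttk, now in the other direction (-1.89 ± 0.73). It had the severed values given above, against 8.86, 8.50, 8.70, 9.41 and 8.39 in sham day 10 ligaments (8.77 ± 0.40, SD, n = 5), with no overlap, as for 1 of 34 members and 1.47% of features. Ccnb1 had 7.31 ± 1.30 in severed ligaments and 8.99 ± 0.31 in sham day 10 ligaments (SD, n = 5 each), and differed by -1.50 ± 0.78. Cdk1 had 8.76 ± 1.83 in severed ligaments and 10.62 ± 0.42 in sham day 10 ligaments (SD, n = 5 each), and differed by -1.80 ± 1.05.

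On day 14 it was above 0 for 21 of 34 genes, with a median of 0.26 (0.10 for mitosis and 0.26 for replication genes) against 0.01 over all features. With median scaling the replication median was -0.02, against 0.21 over all features. None passed the adjusted threshold, where 0.0026% of features did, and 1 was higher and 0 lower without adjustment, where 2.1% of features were higher and 1.25% lower. Ttk, the higher one, read 8.72, 7.68, 8.51 and 9.10 in severed day 14 ligaments, against 8.26, 5.64, 6.79 and 6.16 in sham day 14 ligaments, and differed by 1.85 ± 0.76. The sham values 5.64, 6.79 and 6.16 were under the dimmest level above background of every sham day 14 sample (lowest 7.78), so this size is not well measured. Over the mean of the 6 days 27 of 34 genes were above 0, with a median of 0.18 (0.37 for mitosis and 0.12 for replication genes) against 0.00 over all features. None passed the adjusted threshold (0% of features), and 3 were higher and 0 lower without adjustment, where 0.984% of features were higher and 0.477% lower. They were Ccna2 (1.04 ± 0.42), Ttk (0.95 ± 0.33) and Rrm2 (0.77 ± 0.36).

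**Figure D5:**
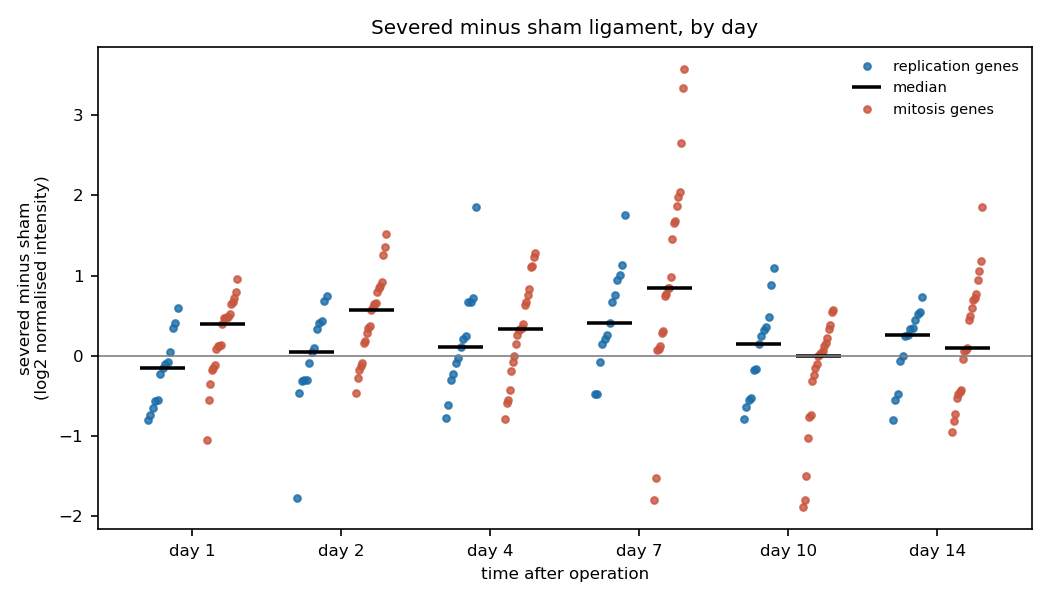
Severed minus sham difference (log2, vertical axis) on each of the 6 days (horizontal axis), 1 dot per gene, replication genes in blue and mitosis genes in red, with a short black line at the median of each group. On day 7 the medians are 0.85 for the mitosis and 0.41 for the replication genes, against -0.01 and 0.14 on day 10.

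Whether severing acted differently on different days was tested as a difference of differences. Ttk was the 1 member to pass, for day 14 minus day 10, with 3.74 ± 0.67 (limma, adjusted p = 0.00145), where 286 of the 38403 features passed. Without adjustment, 4 members differed, where 10.2% of features did. The size of the Ttk change is not well measured, since most severed day 10 and sham day 14 values were too dim to be above background. The second Ttk probe did not show the change (-0.72, limma, adjusted p = 0.876), and the call was lost with misread values kept (2.84, adjusted p = 0.22). That probe read 7.50, 7.66, 6.90, 7.57 and 7.24 in severed day 14 ligaments, against 7.78, 7.25, 7.97, 8.90 and 8.58 in sham day 14 ligaments, so that sham samples tended higher where the brighter probe had them lower. For day 7 minus day 10, no member passed the adjusted threshold and 4 differed without adjustment, where 2.14% of features did. These were Cdk1 (5.37, limma, adjusted p = 0.633), Ttk (5.22, adjusted p = 0.0887), Ccnb1 (3.54) and Ccna2 (2.88).

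The second probes set a limit on single genes. Of the 11 genes with 2 probes, both had the same sign in 10 for fibroblasts against unmanipulated ligament and in 10 for severed day 10 against unmanipulated ligament. The count was 7 for severed against sham ligaments on day 7 and 3 on day 4. It was 7 for severed day 7 and 6 for severed day 14 against unmanipulated ligament. For fibroblasts against severed day 14 it was 7, and for severed day 7 against day 10 it was 8. The median gap between both probes of a gene was 0.64 for fibroblasts against unmanipulated ligament and 1.38 for severed against sham on day 7. It was 1.21 for fibroblasts against severed day 14, where the second probe gave 0.72 for Cdk1, 0.27 for Ccnb1 and 2.92 for Plk1. For severed day 7 against day 10 it was 1.49. Ccnb1 kept its day 7 difference on the second probe (1.93), which read 7.88 and 8.11 in severed day 7 ligaments and 6.40, 5.91 and 5.64 in sham day 7 ligaments. Cdk1 did not (-1.58), with 5.91 and 6.39 in severed ligaments and 5.64, 5.64 and 11.30 in sham ligaments on that probe, which was at or near the floor in most samples. For Ttk the second probe gave 0.91, for Ccna2 0.84 and for Top2a -0.27.

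Some members varied more between samples than between groups. Foxm1, a transcription factor of the mitosis genes, read 13.30, 13.47, 7.50, 6.66 and 8.84 in severed day 2 ligaments, against 14.23, 13.35, 6.23, 7.56 and 8.01 in sham day 2 ligaments. On day 14 it read 13.35, 13.58, 5.64, 5.64 and 6.84 in severed ligaments, against 13.52, 13.72, 5.65, 6.39 and 7.23 in sham ligaments. On both days the high values were those of replicates 1 and 2 in severed and in sham ligaments alike, and on these days a severed and a sham sample of the same number were hybridised on the same array. Mcm3 did likewise for replicate 4 of day 2, with 12.77 in the severed and 13.42 in the sham sample, while the other samples of that day lay between 5.64 and 9.58.

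Genes outside the 37 that act in the same steps were counted from 3 lists. Of 31 other replication genes 29 were measured, of 42 other mitosis genes 39, and of 22 G1 cyclins, kinases, pocket proteins and factors of the E2F and MuvB families 18. In fibroblasts against unmanipulated ligament the medians were 0.48 for other replication, 0.90 for other mitosis and 0.45 for G1 and E2F genes, with 19, 36 and 12 genes above 0. Cdc25c, the phosphatase that activates Cdk1, was at least 1.68-fold higher (limma, adjusted p = 0.0471), with a mean of 7.87 in fibroblasts against 5.83 in unmanipulated ligaments, where 0 of 5 samples were above background, and no other gene of the 3 lists passed in that comparison. At an unadjusted p under 0.05, 7 other mitosis genes were higher, Kif4a among them (2.42 ± 0.79, with 1 of 5 unmanipulated samples above background), and 2 G1 genes, the cyclin Ccnd1 (2.15 ± 0.60, adjusted p = 0.064) and its kinase Cdk6 (at least 1.85-fold higher, since no unmanipulated sample was above background). No other replication gene was. In severed day 7 against sham day 7 ligaments the medians were 0.56, 0.76 and 0.27, and no gene passed. Lower in severed day 10 than in unmanipulated ligaments were Pold1, the catalytic subunit of a replication polymerase (-1.70 ± 0.37, adjusted p = 0.00599), and the mitosis kinase Melk (-1.76 ± 0.50, adjusted p = 0.0394), which was above background in 1 of 5 severed samples. On day 14 Rpa2, a protein that binds single-stranded DNA (-1.81 ± 0.52, adjusted p = 0.0415, above background in 1 of 5 severed samples), and the phosphatase Cdc25b (-2.31 ± 0.68, adjusted p = 0.0488) were lower in severed ligaments.

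The other cell types a ligament sample can hold differed in level too. Bone marrow progenitor markers, whose cells cycle, had summed intensities of 688 to 973 in fibroblasts and 492 to 855 in unmanipulated ligaments. Macrophage markers in unmanipulated ligaments summed to 4371 to 53201. The ligament and tendon markers had 98371 to 126291 in severed day 7 ligaments, 116118 to 160817 in severed day 10 ligaments and 94829 to 115100 in unmanipulated ligaments. The part of these cells in the values of the 34 genes was not tested. In the reference RNA the means of Mki67, Rrm2 and Mcm2 with Cy5 were 11.11, 12.12 and 10.43, all above their fibroblast means of 8.28, 8.60 and 8.10, while those of Ccnb1 and Plk1 were 8.94 and 7.56, below their fibroblast means of 10.43 and 10.46. No test was made for the reference RNA.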

How the data were processed

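The authors deposited a table of GenePix intensities per spot, already background-subtracted, with a spot flag (a code, unit other), and a series matrix of log2 values whose scale and centring are not stated. Column medians of that matrix ran from 6.37 to 7.78 and 46.8% of its values were blank. It was used as an alternative only. The build and the image software's settings are not given in the sources used here.

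Windows of 1000 spots whose correlation with the other samples was under 0.5 of the median were taken as misread and set to missing (12 of 72 columns, 6.29% of values). Intensities were quantile-normalised and floored at 50 before log2. Probes with over 100 in at least 3 samples were kept. limma (3.58.1, R 4.3.3) fitted 15 group means and a dye term on 60 samples, with Benjamini-Hochberg adjustment over 38403 features and a threshold of 0.05. Dyes came from the file headers, which on day 2 are opposite to the labels. Groups with a spread no larger than that of the reference RNA of the same dye were averaged. Promoters were RefSeq's (GRCr8). Scripts were tested on simulated data with log2 changes of 2 and 3. Recovery was 59% and 91% for severed day 10 against unmanipulated ligament, and 10% and 41% for severed against sham ligament on day 10.

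Every member is named, and every sample's value is given for Mki67, Cdk1, Top2a, Ccnb1, Pcna, Mcm2, Rrm2 and members past the threshold. Other genes were added for their role or difference after the values were seen. The members and lists were chosen with earlier results of these data known. The comparisons of severed days 7, 10 and 14 one by one, of day 7 with day 10 and between days were added after the data were seen. Replicate numbers paired samples on days 1, 2, 10 and 14, where every pair shared an array and deviated together. The main fit did not use this pairing, also not for severed against sham ligaments. Over all 27 pairs, 24 had a correlation over 0.1, with a median of 0.41 (range -0.17 to 0.90), and days 4 and 7 did not meet the rule.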

Additional observations from a re-analysis of the deposited data

Results flagged for a closer look

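Among 12 genes, 126 sets of 4 or 5 samples were searched for a sample far from the others of its group, and 19 such samples were found. For normal values without ties chance gives about 1 in 20, or 6.3 of 126. Levels were floored at 5.64, and where the other samples of a set sit at the floor, any value above it is flagged. That was so for Rrm1 in severed day 1 and Mcm6 in severed day 14 ligaments, among others. The 19 can therefore not be set against 6.3. All values are log2 levels. Fibroblast replicate 1 was low for Cdk1 (8.81), Rrm2 (5.64) and Tpx2 (5.92), and fibroblast replicate 3 was low for Ube2c (9.83). Among severed samples, day 1 replicate 1 was low for Mki67 (6.21), day 1 replicate 3 stood apart for Rrm1 (7.24), day 2 replicate 5 was high for Ccnb1 (10.84), day 2 replicate 4 was high for Tpx2 (7.81), day 10 replicate 5 was high for Tpx2 (7.00) and day 14 replicate 5 was high for Mcm6 (5.99). Among sham samples, day 1 replicate 4 was low for Tpx2 (5.64), day 2 replicate 4 stood apart for Tpx2 (6.00) and day 2 replicate 3 was low for Ttk (7.49). Sham day 4 replicate 5 stood apart for Mcm2 (7.02) and replicate 3 for Rrm1 (6.81). Sham day 10 replicate 5 was high for Mcm2 (9.12) and Tpx2 (7.01), and replicate 2 was high for Rrm2 (8.04). Unmanipulated replicate 3 was low for Mcm6 (5.64). Day 10 replicate 5 of the severed and of the sham group, both high for Tpx2, shared an array and had the highest share of spots above background of their groups.

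The severed minus sham difference of Ttk changed between days 10 and 14 by 3.74 on the log2 scale (limma, adjusted p = 0.00145), a test of the difference itself. Severed samples were below all sham samples on day 10, and 3 of the 4 severed samples with a value were above all sham samples on day 14. Most severed day 10 and sham day 14 values were not above background, so the size of this change is not well measured. The second Ttk probe did not show the change.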

How the results depend on the processing

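Counts of members past the adjusted threshold moved as follows. In fibroblasts against unmanipulated ligament, 0 higher became 2 with median scaling, 9 with near-identical samples kept separate and 13 in the series matrix. In fibroblasts against severed day 14, 1 higher became 0 with all values kept, with or without a dye term, 0 with a floor of 20, 4 with a floor of 100, 7 with median scaling, 14 with samples kept separate, 29 in the series matrix and 5 with samples that stand apart left out, and 1 to 3 when each sample was left out in turn (3 without fibroblast replicate 1, 2 without severed day 14 replicate 5). In severed day 10 against unmanipulated ligament, 1 higher became 0 with all values kept, with or without a dye term, with either floor, with the second probes, with the array as a random block, in the series matrix and with the larger reference spread, and 0 to 1 with a sample left out (0 without unmanipulated replicates 2, 3 or 4 or severed replicates 1 or 4). The 2 lower became 0 with all values kept, 1 with these and no dye term, 10 with median scaling, 1 with the second probes, 1 with samples kept separate, 6 in the series matrix, 4 without samples that stand apart, and 0 to 3 with a sample left out (0 without severed replicate 1, 1 without severed replicate 4 or unmanipulated replicates 2 or 5). In severed day 14 against unmanipulated ligament, 2 lower became 0 with all values kept, with or without a dye term, 4 with median scaling, 1 with either floor, 7 in the series matrix, 1 with the larger reference spread, and 0 to 2 with a sample left out (0 without severed replicates 1, 3 or 4 or unmanipulated replicates 2, 4 or 5, and 1 without severed replicate 2 or unmanipulated replicates 1 or 3). For severed days 7, 10 and 14 together, 0 lower became 1 with median scaling. Without a dye term, severed against sham gave 1 lower on day 2, 1 lower on day 10 and 1 higher on day 14, each 0 otherwise. Severed day 7 gave 1 higher against unmanipulated ligament in the series matrix, and against severed day 10 it gave 2 higher with samples kept separate and 18 in the series matrix, each 0 otherwise. The Ttk change between days 10 and 14 turned to -0.72 with the second probe, and ran from 3.38 to 4.25 with a sample left out, each past the threshold. With the replicate block on days 1, 2, 10 and 14, where numbers pair samples, the counts were 5 higher for fibroblasts against severed day 14, 5 lower for severed day 10 and 1 lower for days 7, 10 and 14 together, and 3 lower for severed day 14. Fibroblast and unmanipulated samples have no block, so in these comparisons the SE is understated where pairs deviate together. Several settings also raise the count over all 38403 features. For fibroblasts against unmanipulated ligament, 401 features became 3737 with samples kept separate, 4036 in the series matrix and 927 with median scaling, and for fibroblasts against severed day 14, 751 became 6563, 9854 and 1375, and 1587 with the block. For severed day 10 against unmanipulated ligament, 1090 became 5219 in the series matrix, 6555 with median scaling and 3802 with the block, and for day 14, 1126 became 5333, 3806 and 4119. For severed days 7, 10 and 14 together, 84 became 1234 with median scaling and 764 with the block. Against severed day 10, severed day 7 went to 404 with samples kept separate and 6702 in the series matrix, against 4, and against unmanipulated ligament it went to 604 in the series matrix, against 5. Severed against sham gave 298 called features on day 2 when the dye term was dropped, 158 for day 10 and 773 for day 14. Beyond that limit on the block, the cause was not tested for any of these moves. The settings with the larger reference spread and without samples that stand apart were added after the data were seen. Dim spots limit what can be measured, since Mcm2, Mcm5 and Cdc6 were above background in 0 severed day 14 samples.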
